A study of Mus musculus with 56 samples.

Results

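The 10 genes described here encode glutathione transferases of mouse liver: the alpha-class genes Gm3776, Gsta2, Gsta3 and Gsta4, the mu-class genes Gstm1, Gstm2 and Gstm3, the pi-class gene Gstp1 and the theta-class genes Gstt1 and Gstt3. They were taken by name from the 25415 genes of the deposited table, and 17 further genes of the glutathione transferase families that the table lists were used for comparison. Liver RNA of 56 mice was sequenced, all of them female, of the strain C57BL/6J, 9 weeks old and kept under 12 h of light per day. For 7 days, food was given either by day (daytime-restricted feeding, DRF) or by night (nighttime-restricted feeding, NRF, the reference regimen), after 7 days of free feeding in both. Tissue came from 4 animals per regimen at ZT0, 4, 8, 12, 16, 20 and 24 (ZT, zeitgeber time, counts the hours since the lights came on), which gave 28 libraries per regimen and 14 groups. The animals carried no engineered allele. The study used inverted feeding to ask which rhythms of the liver follow food and which follow light.

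Cytosolic glutathione transferases join reduced glutathione to electrophilic compounds, which are then exported from the cell and excreted as mercapturic acids. The alpha and mu classes are abundant in hepatocytes, and several of their genes are induced through the receptors CAR and PXR and through NRF2, the factor that answers oxidative and electrophilic stress. Alpha-class enzymes also reduce lipid hydroperoxides. GSTA4 prefers reactive aldehydes of lipid peroxidation, and theta-class enzymes act on small halogenated compounds. Feeding time is a strong time cue for liver rhythms, whereas the central clock follows light.

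Levels are given as scaled counts, that is, whole counts rebuilt out of the deposited table and brought to one scale across libraries. One unit stood for 304 to 723 recovered counts, and the libraries summed to 846786 to 1056930 units. Recovered counts exceeded the reads per sample that the study states and are not reads, so the precision of each value was taken from the spread between animals. Scaled counts compare libraries; genes were set against each other only after division by length. The hepatocyte markers Alb, Apoa1, Tat, Cps1 and Cyp2e1 summed to at least 94222 units in every library, as liver should (Ttr was not tested). In bulk liver, fewer cells of a type and less RNA per cell cannot be told apart.

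Some of these genes are nearly the same sequence, and the stretches in which they differ are shown because they limit what a read can tell. Gm3776 (ENSMUSG00000111709) spans chr9:78257129-78269166 (GRCm38) on the plus strand, in 7 exon blocks of 874 nt in total. Its transcript Gm3776-201 differed from Gsta1-201, the product of the neighbouring gene Gsta1, by 4 substitutions in 874 aligned bases (99.5% identity). Counted from 1 at the 5′ end of Gm3776-201, with the base of Gm3776 first, the substitutions were T10G, G40T, C122T and T688C. The 30 bases round C122T and round T688C, from the GENCODE vM21 transcripts, follow with the substituted base in capitals.
Gm3776 bases 108 to 137: agcccgtgcttcacCacttcaatgcccggg
Gsta1 over the same bases: agcccgtgcttcacTacttcaatgcccggg
Gm3776 bases 674 to 703: aatgtgaagaagttTctacagcctggcagc
Gsta1 over the same bases: aatgtgaagaagttCctacagcctggcagc
Gsta2-201 differed from Gm3776-201 at 24 of 869 aligned bases (97.2% identity), and the fourth gene of the group, Gm10639, at 27 of 873.

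Of all 50-nt windows of Gm3776-201, 92.5% occurred letter for letter in another glutathione transferase transcript, as did 63.5% of those of Gsta2-201 and 62.3% of those of Gstp1-201, the latter all in Gstp2. The share was 15.8% for Gstm3, 10.9% for Gstm1 and 1.08% for Gstm2. It was 0 for Gsta3, Gsta4, Gstt1 and Gstt3. The values of Gm3776, Gsta2 and Gstp1 are therefore uncertain as values of single genes, and they are also given below with their near-identical relatives added up. Of the exon bases of Gstt3, 13.6% overlapped those of Gm20441 on the same strand, and no other member overlapped another gene on either strand.

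The order of the levels depended on the length each gene is divided by. Per kb of all exon bases, Gstm1 had 369 ± 64.7 scaled counts per kb (mean ± SD, 56 libraries), Gsta3 261 ± 48.6, Gstt1 176 ± 18.7 and Gsta4 132 ± 31.3, and Gstm1 was above Gsta3 in 56 of 56 libraries. The exons of Gsta3 add up to 4344 nt, whereas its transcript Gsta3-201 has 1457 nt. Per kb of transcript, an alternative chosen after seeing the data, Gsta3 had 777 ± 145, Gstm1 422 ± 73.9, Gstt1 260 ± 27.5 and Gsta4 171 ± 40.6, and Gsta3 was above Gstm1 in 56 of 56 libraries. With either length these 4 genes lay above the other 6, and Gsta4 was above the next gene in 56 of 56 libraries. Per kb of exon bases, Gstm3 (39.8 ± 12.8), Gsta2 (36.3 ± 15.8) and Gstp1 (35.7 ± 6.51) formed a middle group whose order changed between libraries. On this scale Gsta2 was above Gstp1 in 23 of 28 DRF libraries and in 2 of 28 NRF libraries. Gstm2 (14.2 ± 2.37), Gm3776 (12.1 ± 11.3) and Gstt3 (11.1 ± 3.06) were lowest, and they were also the lowest 3 per kb of transcript, with 22.3 ± 3.74, 12.1 ± 11.3 and 22.6 ± 6.25. For Gstp1 the exon length was 757 nt, the one that gave whole counts, and not the 1548 nt of its annotated exons.

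**Figure D1:**
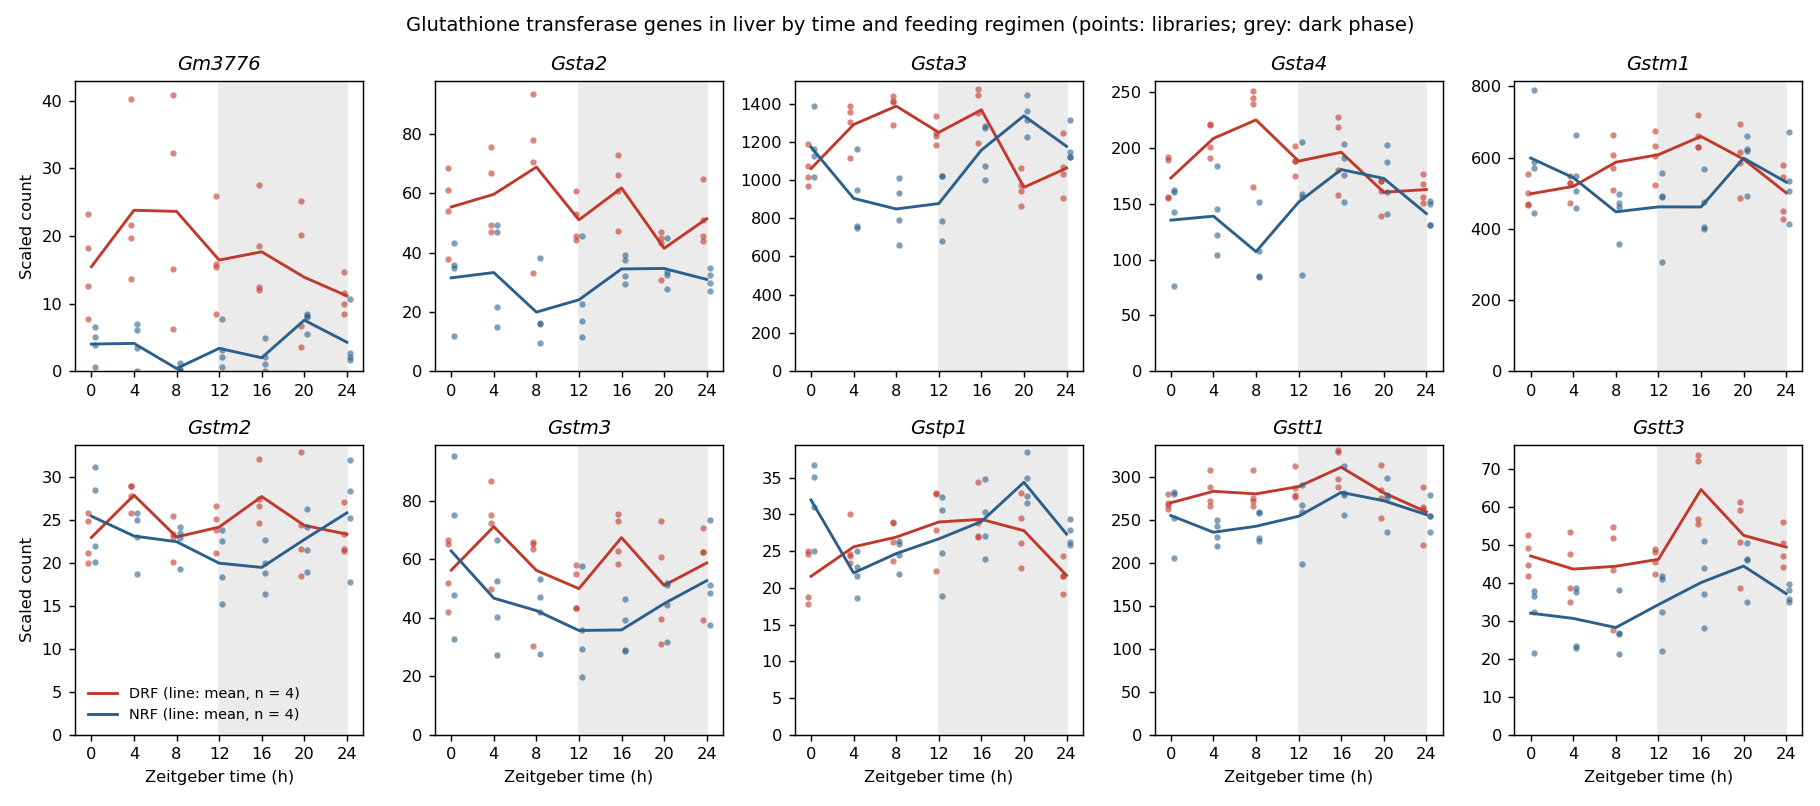
Scaled counts of the 10 genes (y axis, from 0) against zeitgeber time in hours (x axis), with 1 point per library, lines through the means of 4 animals, DRF in red, NRF in blue and the dark phase in grey. Gm3776 lay at group means of 11.1 to 23.8 under DRF and 0.393 to 7.54 under NRF, whereas the lines of Gsta3, Gsta4, Gstm1, Gstm2, Gstm3 and Gstp1 cross.

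Gm3776, an alpha-class-like gene with no established symbol of its own, showed the widest separation of the regimens among the 10. Under DRF its 4 libraries per time held 23.3, 12.6, 18.3 and 7.66 scaled counts at ZT0, 21.7, 19.7, 40.2 and 13.6 at ZT4, and 32.2, 6.29, 15.1 and 40.9 at ZT8. For ZT12 the values were 26.0, 15.4, 8.50 and 15.9, for ZT16 12.1, 12.4, 27.6 and 18.5, for ZT20 3.62, 20.1, 25.2 and 6.64, and for ZT24 9.90, 8.42, 11.5 and 14.7. The level under DRF differed several-fold between animals of the same group. Under NRF the libraries held 0.556, 6.56, 3.89 and 5.02 at ZT0, 6.93, 6.08, 0 and 3.42 at ZT4, and 1.23, 0, 0 and 0.339 at ZT8. For ZT12 they held 0.573, 7.68, 2.11 and 3.11, for ZT16 2.05, 1.05, 0 and 4.84, for ZT20 5.55, 8.0, 8.21 and 8.41, and for ZT24 1.6, 2.74, 2.09 and 10.7. All 28 DRF libraries were above the NRF median of 2.93, and the regimens overlapped at ZT20 and ZT24 but at none of the other 5 times.

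The mean of Gm3776 over 28 libraries was 17.4 ± 9.59 under DRF and 3.67 ± 3.16 under NRF (mean ± SD), a ratio of 4.75. The ratio of the group means was lowest at ZT20, with 1.84, and highest at ZT8, with 60.1. The ZT8 ratio rests on an NRF mean near the floor, 0.393 ± 0.583 (SD, n = 4), so its size is uncertain. With Gsta1 added, the ZT8 ratio was 19.6, and with Gsta2 and Gm10639 also added it was 5.63. On log2(scaled count + 1), the rhythm-adjusted daily mean was higher under DRF by 2.29 ± 0.24 (SE). This scale understates the change of low genes. Sizes of the difference between regimens are given for the 10 genes without a test, because the genes were chosen with that difference known.

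Gsta1, an alpha-class gene that shares most of its sequence with Gm3776, had 26.3 ± 12.7 scaled counts under DRF and 7.01 ± 5.07 under NRF (n = 28 each). It was above 0 in all 56 libraries, whereas Gm3776 was listed at 0 in 4 NRF libraries. Gm3776 made up a median of 41.9% of the sum of the pair under DRF (range 19.7 to 47.0%) and 39.1% under NRF (0 to 50.2%). With Gm3776, Gsta1, Gsta2 and Gm10639 added up, the means were 101.3 ± 34.6 under DRF and 41.3 ± 18.8 under NRF, a ratio of 2.45, and the daily mean was higher under DRF by 1.44 ± 0.16. The summed values did not overlap between the regimens at ZT4, ZT8, ZT16 and ZT24. At ZT8 the sum was 132 ± 60.7 under DRF and 23.4 ± 16.6 under NRF (n = 4 each).

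**Figure D2:**
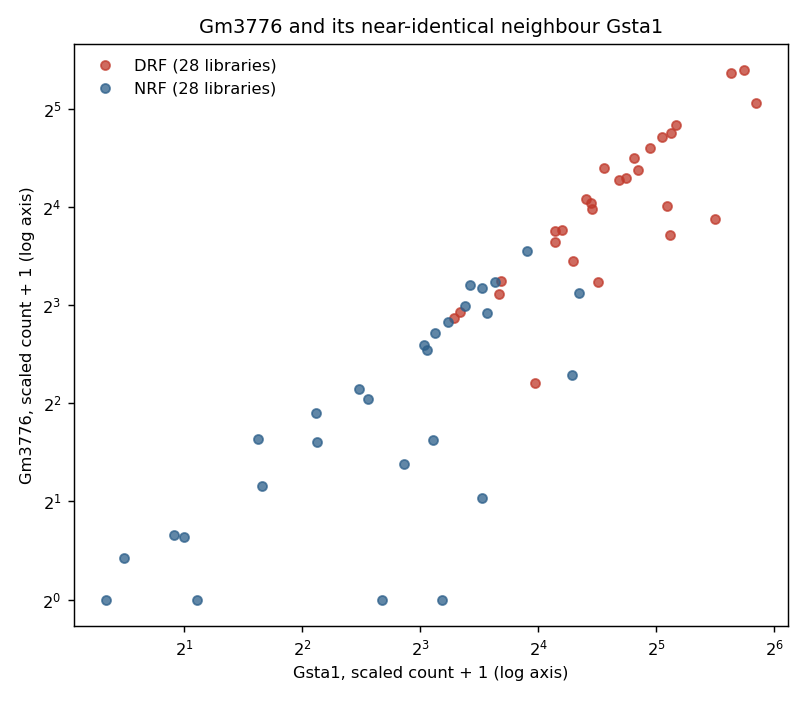
Gm3776 (y axis) against Gsta1 (x axis) in each library, both as scaled count + 1 on log axes, with 28 DRF libraries in red and 28 NRF libraries in blue. DRF libraries fill the upper right, and the 4 NRF libraries listed at 0 for Gm3776 lie on the lower edge at several levels of Gsta1.

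Gsta2 (ENSMUSG00000057933, chr9:78331018-78355788, minus strand), a second alpha-class gene of the same cluster, ranged from 30.9 to 93.7 scaled counts under DRF, with a median of 52.1. Under NRF it ranged from 9.36 to 49.5, with a median of 32.2. Of 28 DRF libraries 27 were above the NRF median, and group means were higher under DRF at all 7 times, by ratios between 1.20 at ZT20 and 3.46 at ZT8. At ZT8 the DRF libraries held 70.7, 33.2, 78.0 and 93.7 and the NRF libraries 16.1, 16.2, 38.1 and 9.36, which overlap through the second DRF library. The daily mean was higher under DRF by 1.0 ± 0.13 on the log2 scale.

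Gsta3 (ENSMUSG00000025934, chr1:21240589-21265661, plus strand), the most abundant alpha-class gene here per kb, crossed between the regimens within the day. At ZT8 its DRF libraries held 1416, 1287, 1406 and 1437 scaled counts, and its NRF libraries held 793, 933, 1011 and 658. At ZT20 the order was the opposite, with 945, 1062, 973 and 866 under DRF and 1225, 1316, 1361 and 1442 under NRF. Neither time showed overlap. The means over the day, 1197 ± 182 under DRF and 1067 ± 221 under NRF, were nearer to each other than the group means at ZT8 and ZT20, and the daily mean differed by 0.23 ± 0.05.

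Gsta4 (ENSMUSG00000032348, chr9:78182774-78209349, plus strand) ranged from 139 to 251.3 under DRF, with a median of 184, and from 76.3 to 205 under NRF, with a median of 151. Its DRF libraries lay above its NRF libraries without overlap at ZT4 and ZT8. At ZT8 they held 240, 165, 245 and 251.3 against 108, 85.0, 151 and 84.5. The ratio of group means fell from 2.10 at ZT8 to 0.928 at ZT20, and the daily mean differed by 0.40 ± 0.08.

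Gstm1 (ENSMUSG00000058135, chr3:108012255-108017973, minus strand), the main mu-class gene of mouse liver, reached its highest DRF mean at ZT16, with 628, 662, 629 and 719 scaled counts. The NRF libraries held 398, 474, 406 and 567 at that time and did not overlap with them. At ZT0 the order of the means was the opposite, with 498 ± 40.1 under DRF and 599 ± 143 under NRF (SD, n = 4 each), and there the libraries overlapped. The daily mean was higher under DRF by 0.19 ± 0.06.

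Gstm2 (ENSMUSG00000040562, chr3:107981702-107986453) and Gstm3 (ENSMUSG00000004038, chr3:107963696-107969283), lie on the minus strand beside Gstm1. Gstm2 ranged from 18.5 to 32.9 under DRF and from 15.2 to 32.0 under NRF, with medians of 24.8 and 22.8. At ZT16 its DRF libraries held 27.5, 26.6, 24.7 and 32.1, all above the NRF libraries with 16.4, 19.99, 18.8 and 22.7. Gstm3 held 62.6, 58.2, 73.2 and 75.5 under DRF at ZT16 and 28.9, 39.1, 28.7 and 46.5 under NRF, and overlapped at every other time. Daily means were higher under DRF by 0.16 ± 0.06 for Gstm2 and 0.43 ± 0.11 for Gstm3.

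Gstp1 (ENSMUSG00000060803, chr19:4035407-4037985, minus strand), the pi-class gene, was the member with the lower mean over the day under DRF, although its group mean was higher under DRF at 4 of 7 times. The ratio of group means, DRF to NRF, was 1.16 at ZT4, 1.09 at ZT8, 1.09 at ZT12 and 1.01 at ZT16, and the libraries overlapped at these times. It was 0.675 at ZT0, 0.808 at ZT20 and 0.794 at ZT24. At ZT0 its DRF libraries held 17.9, 18.8, 24.7 and 25.0 scaled counts, below the NRF libraries with 31.0, 36.8, 35.0 and 25.0. The closest pair lay at 24.957 and 25.003, so the separation at ZT0 was narrow. At ZT24 the DRF libraries, with 21.6, 19.2, 24.4 and 21.6, were again below the NRF libraries, with 29.4, 26.2, 25.8 and 27.9. The mean over the day was 26.0 ± 4.40 under DRF and 28.01 ± 5.29 under NRF, and the daily mean differed by -0.06 ± 0.05. With Gstp2 added, it differed by -0.07 ± 0.05.

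Gstt1 (ENSMUSG00000001663, chr10:75783813-75798584, minus strand) and its neighbour Gstt3 (ENSMUSG00000001665, chr10:75774115-75781414, minus strand) had higher group means under DRF at all 7 times. Gstt1 varied least of the 10, from 221 to 331 under DRF and from 199 to 312 under NRF, and its ratio of group means stayed between 1.01 and 1.20. Gstt3 held 73.8, 55.5, 72.2 and 56.9 at ZT16 under DRF and 37.1, 43.9, 28.2 and 51.1 under NRF, without overlap. It was also separate at ZT0, ZT12 and ZT24. The daily means were higher under DRF by 0.15 ± 0.03 for Gstt1 and 0.51 ± 0.08 for Gstt3.

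Over the 10 genes, group means were higher under DRF at all 7 times for Gm3776, Gsta2, Gstt1 and Gstt3, which is 4 of 10 beside 1.31% of the 25267 genes tested. DRF libraries lay above NRF libraries without overlap for 2 members at ZT0 (9.75% of all genes), 4 at ZT4 (11.8%) and 5 at ZT8 (8.69%). For ZT12 the count was 3 (7.52%), for ZT16 6 (9.23%), for ZT20 0 (10.1%) and for ZT24 2 (8.85%). They lay below for Gstp1 at ZT0 (9.79% of all genes) and ZT24 (7.98%) and for Gsta3 at ZT20 (7.53%), and for none at ZT4 (10.6%), ZT8 (9.37%), ZT12 (8.69%) and ZT16 (6.68%). Nothing is read from these counts, since the genes were chosen with the contrast between regimens known. Over the 10 genes the median difference in daily mean was 0.32 on the log2 scale, and over all genes tested it was -0.0017.

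**Figure D3:**
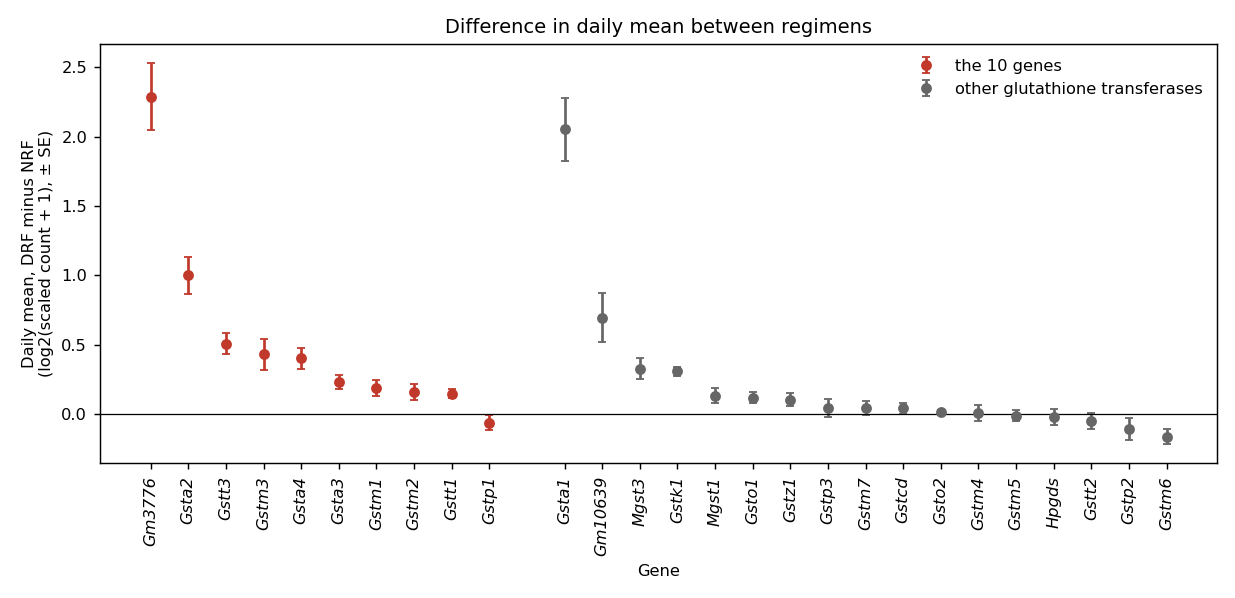
Difference in daily mean between the regimens, DRF minus NRF, on log2(scaled count + 1) with its SE (y axis), for the 10 genes in red and 17 other glutathione transferase genes in grey. Gm3776 (2.29) and Gsta1 (2.05) stand far above the others, most of which lie near 0.

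Diurnal rhythms were then tested within each regimen, with an F test of a 24-h cosine and sine in limma and adjustment over all 25267 genes. Under NRF, 10 of the 10 genes were called rhythmic, where 43.7% of all genes were. Gsta3 had the lowest adjusted p (4.91e-07), followed by Gstp1 (0.0011), Gsta4 (0.00339), Gstt3 (0.0065), Gstm1 (0.00839), Gm3776 (0.0161), Gstt1 (0.0173), Gstm2 (0.0266), Gstm3 (0.0341) and Gsta2 (0.0381). Under DRF, 4 of 10 were called, where 35.1% of all genes were: Gsta3 (adjusted p = 0.000957), Gstp1 (0.00753), Gstm1 (0.0183) and Gstt3 (0.0491). The other 6 did not pass, with adjusted p between 0.0742 for Gsta4 and 0.925 for Gstm3. The 4 genes called in both regimens compare with 23.3% of all genes. Low genes are part of these shares. With a filter at a mean of 1 scaled count, which all 10 genes pass, 8361 of 13729 genes were called under NRF and 7494 under DRF. Of the 10 genes, 10 and 5 were then called.

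The NRF calls of several genes were close to the threshold and depended on single sets of animals. Without replicate 4 of every group, 3 of 10 genes stayed called under NRF, namely Gsta3, Gstm1 and Gstp1, and without replicate 3, 6 did. An exact rank test against cosine templates called 3 under NRF, Gsta3, Gsta4 and Gstp1. Under DRF, Gsta3 alone was called without replicate 2. Gsta3 stayed called under DRF without any one replicate, but not on the deposited values (adjusted p = 0.144). Gstm1 was lost without replicate 1, 2 or 4, Gstp1 without 2 or 4, and Gstt3 without 1, 2 or 3. One library, the second at ZT8, decided 2 of the DRF results: without it Gsta4 passed (adjusted p = 0.0358) and Gstt3 did not (0.117).

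A test of the difference itself, that the cosine and sine terms were equal in both regimens, called 6 of 10 genes, where 38.9% of all genes were called. They were Gsta3 (adjusted p = 1.37e-08), Gstm1 (0.000594), Gsta4 (0.000994), Gstp1 (0.00206), Gm3776 (0.015) and Gsta2 (0.0348), and so included all 4 alpha-class members. Gstm2 (0.0851), Gstt1 (0.216), Gstm3 (0.291) and Gstt3 (0.781) did not pass. With the filter at a mean of 1 scaled count, 7823 of 13729 genes were called, and again 6 of the 10, so their share was near that of all such genes. Without replicate 4 of every group, 3 of 10 were called, Gsta3, Gstm1 and Gstp1. Gm3776 was also lost on the deposited values (limma adjusted p = 0.131) and without replicate 1 (0.0694). Gsta2 was also lost without replicate 3 (0.0741) and without ZT24 (0.0711). With near-identical genes added up, the sum of Gm3776, Gsta1, Gsta2 and Gm10639 still passed (adjusted p = 0.013), as did that of Gstp1 and Gstp2 (0.00129).

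Peak times were taken from a 24-h cosine fitted to scaled counts. Among the dual-oscillating genes, called in both regimens, Gsta3 peaked at ZT9.73 ± 0.78 under DRF and at ZT20.2 ± 0.56 under NRF (SE, n = 28 each), a shift of 10.4 ± 0.96 h. Gstm1 peaked at ZT14.3 ± 0.81 under DRF and ZT22.9 ± 1.45 under NRF, a shift of 8.63 ± 1.66 h. Both fall among phase-inverted genes, where the shift is 8 to 12 h, although that of Gstm1 lies within 1 SE of the limit of 8 h. The study applied these classes to rhythms called by MetaCycle, whereas here limma gave the calls and the cosine fit the peaks. Gstp1 shifted by 5.76 ± 1.34 h, from ZT19.2 ± 0.81 under NRF to ZT13.4 ± 1.07 under DRF. Gstt3 peaked at ZT17.3 ± 0.97 under DRF and ZT18.4 ± 0.96 under NRF, a shift of 1.08 ± 1.36 h, within the 0 to 4 h of phase-locked genes. Its DRF call (adjusted p = 0.0491) was also lost without ZT24 (0.0752), without ZT0 (0.0585) and by the exact rank test (0.0835), besides the settings given above.

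The remaining 6 genes were called under NRF and not under DRF, and their NRF peaks fell within the dark phase or just after lights on. Gsta4 peaked at ZT17.7 ± 1.0, Gstt1 at ZT17.6 ± 1.07, Gsta2 at ZT20.7 ± 1.91 and Gm3776 at ZT21.1 ± 1.43. Gstm3 peaked at ZT0.87 ± 1.56 and Gstm2 at ZT1.32 ± 1.40. The NRF amplitude was 61.0% of the mesor (the rhythm-adjusted mean) for Gm3776, 20.7% for Gsta2, 24.1% for Gsta3 and 8.59% for Gstt1. Under DRF the mesor of Gm3776 was 17.8 ± 1.78 scaled counts, beside 3.45 ± 0.56 under NRF (SE), its amplitude was 5.15 ± 2.61 and its rhythm was not called.

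**Figure D4:**
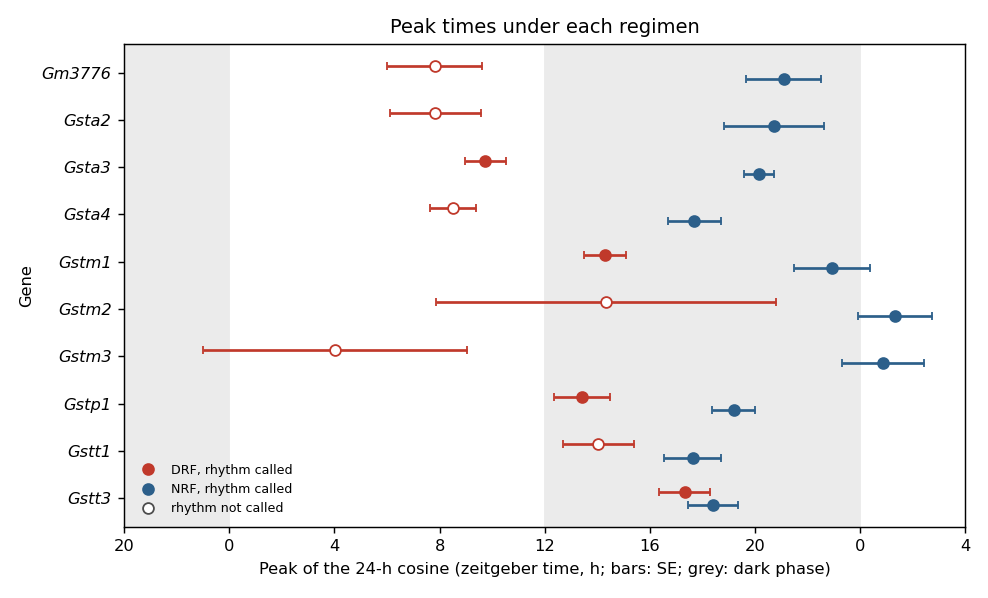
Peak of the fitted 24-h cosine of each gene (y axis) in zeitgeber hours (x axis, dark phase in grey) with its SE, DRF in red and NRF in blue. Filled points passed the rhythm test in that regimen, and the filled pairs of Gsta3 and Gstm1 lie 10.4 h and 8.63 h apart, that of Gstt3 1.08 h.

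ZT0 and ZT24 are the same time of day, and their comparison gives the size of differences that time of day does not set. In neither regimen did a member pass the test between ZT24 and ZT0 (limma, adjusted over all genes), and 0 had an unadjusted p under 0.05. Of all genes, 3.09% were called under DRF (1.44% higher at ZT24, 1.64% lower) and 7.88% under NRF (2.32% higher, 5.56% lower). The lowest adjusted p over the 10 genes was 0.802 under DRF and 0.442 under NRF. For Gsta3 the difference was -0.0015 ± 0.13 under DRF and 0.01 ± 0.13 under NRF on the log2 scale (SE). For Gm3776 it was -0.36 ± 0.61 and 0.01 ± 0.61, so that this gene was measured far less closely.

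The spread between animals of one group differed widely among the 10 genes. Pooled over the 14 groups, the SD on the log2 scale was 0.13 for Gstt1, 0.18 for Gsta3 and 0.20 for Gstp1. It was 0.44 for Gstm3, 0.51 for Gsta2 and 0.87 for Gm3776, beside 0.89 for Gsta1.

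These deviations were shared. After the group means were taken out, the 45 pairs of members all correlated positively over the 56 libraries, with Spearman rho from 0.16 to 0.78 and a median of 0.53. Between a member and each of 13728 other genes the median rho was 0.0374. The values share their libraries and, for the near-identical genes, possibly reads, and they are given as a description. The closest pair was Gsta2 and Gsta4, with 0.78, followed by Gstm2 and Gstm3, with 0.77. Gsta4 shares no 50-nt window with Gsta2. Gstp1 was least tied to the others, with 0.16 to Gstt3 and 0.20 to Gsta2.

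The shared deviation showed in single animals. In 5 libraries at least 9 of the 10 genes were the lowest of their group of 4. All 10 were lowest in DRF ZT8 replicate 2, where Gm3776 held 6.29 scaled counts against 15.1 to 40.9 in the other 3 libraries, and in NRF ZT20 replicate 1. In NRF ZT0 replicate 1, NRF ZT8 replicate 4 and NRF ZT12 replicate 1, 9 of 10 were. In NRF ZT16 replicate 4, all 10 were the highest, as were 32.0% of all genes with a mean of at least 1 scaled count. Of the same genes, 28.03% were the lowest of 4 in DRF ZT8 replicate 2, 27.0% in NRF ZT8 replicate 4 and 28.8% in NRF ZT12 replicate 1. The shares were larger in NRF ZT0 replicate 1, with 39.7%, and NRF ZT20 replicate 1, with 44.6%, so these 2 libraries stood low in general, and without replicate 1 of every group 7 of 10 genes were called under NRF, without Gstm1, Gstm2 and Gstm3.

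**Figure D5:**
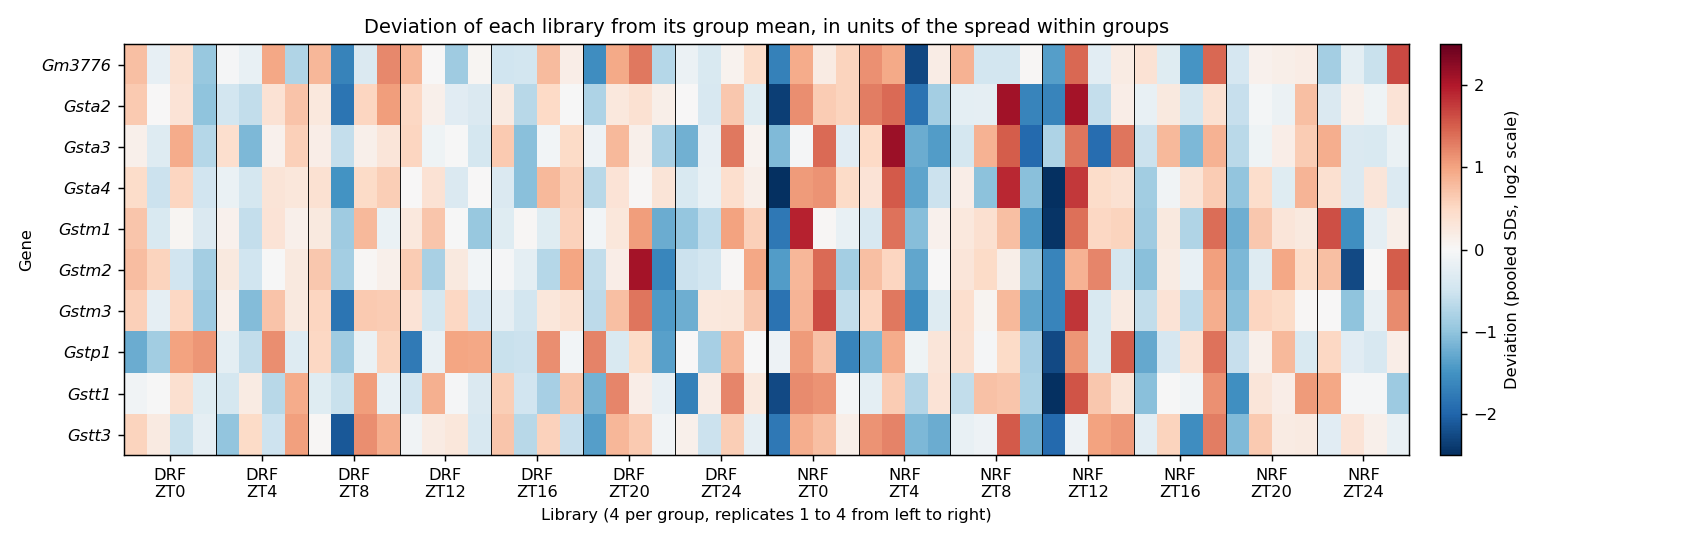
Deviation of each of the 56 libraries (x axis, grouped by regimen and time, replicates 1 to 4 from left to right) from its group mean for each gene (y axis), on log2(scaled count + 1) in units of the pooled SD of that gene (color, blue low and red high). Nearly whole columns are blue in the second library of DRF ZT8 and the first of NRF ZT0 and NRF ZT12, and red in the fourth of NRF ZT16.

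Among the other glutathione transferases, 4 of 17 had a higher daily mean under DRF and 0 a lower one (limma, adjusted over all genes), where 4.12% of all genes were higher and 2.7% lower (6.82% in either direction). At an unadjusted p under 0.05 the counts were 7 higher and 1 lower. The share of all genes at that threshold was not computed, here or for the lists below. The 4 called after adjustment were Gsta1 (higher by 2.05 ± 0.23, adjusted p = 4.16e-09), Gm10639 (0.70 ± 0.17, 0.00673), the mitochondrial kappa-class gene Gstk1 (0.31 ± 0.04, 7.57e-09) and the microsomal Mgst3 (0.33 ± 0.07, 0.00182). Gsta1 and Gm10639 are near-identical to the members Gm3776 and Gsta2 and can share their reads. Their tests are therefore not separate from the difference known when the members were chosen. The lists and markers below were also chosen with earlier results of these data known. Their p-values for the daily mean are a description and give no independent support. Over all 17 the median difference was 0.04. Rhythms differed between the regimens for 8 of 17, where 38.9% of all genes were called, among them Gstm4 (adjusted p = 3.41e-12), which peaked at ZT13.8 under DRF and ZT4.18 under NRF, and Gstt2 (5.81e-14), at ZT4.63 and ZT12.9. The others were Gsta1, Gstm6, Gstm7, Gsto1, Gsto2 and Gstcd. Gsta5, Gstt4 and Mgst2 were not analysed here.

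Of 17 genes tested that make, recycle or use glutathione, 2 had a higher daily mean under DRF, Gpx4 (0.17 ± 0.04, adjusted p = 0.00535) and Ggt6 (0.17 ± 0.05, 0.0476), and 0 had a lower one. Of all genes, 4.12% were higher and 2.7% lower. At an unadjusted p under 0.05, 5 were higher and 3 lower. Rhythms differed for 10 of 17, beside 38.9% of all genes. Gclc, the catalytic subunit of the rate-limiting enzyme of glutathione synthesis, peaked at ZT8.59 under DRF and ZT0.38 under NRF on the log2 scale (adjusted p of the difference = 4.94e-14). Gsr, which regenerates reduced glutathione, peaked at ZT12.7 and ZT1.06 (5.23e-12).

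The mercapturate route and export of conjugates included 13 genes, of which 5 had a higher daily mean under DRF and 0 a lower one, beside 4.12% and 2.7% of all genes. The exporter Abcc4 was higher by 0.66 ± 0.08 (adjusted p = 6.87e-08), with 47.8 ± 14.8 scaled counts under DRF and 29.6 ± 8.68 under NRF (SD, n = 28 each), and Abcc3 by 0.19 ± 0.04 (0.00136). The others were the dipeptidase Dpep1 (0.19 ± 0.05, 0.0136), the aminoacylase Acy1 (0.16 ± 0.04, 0.013) and the acetyltransferase Nat8 (0.10 ± 0.03, 0.0286), of which Dpep1 and Nat8 were low, with DRF means of 1.16 and 0.256. At an unadjusted p under 0.05, 6 were higher and 3 lower. Abcc2, the exporter at the bile canaliculus, was not called (-0.02 ± 0.04, adjusted p = 0.846). Rhythms differed for 11 of 13, beside 38.9% of all genes.

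Of 10 NRF2 targets outside glutathione metabolism, 3 had a higher daily mean under DRF, Nqo1 (0.31 ± 0.07, adjusted p = 0.00117), Ephx1 (0.20 ± 0.05, 0.00456) and Ugdh (0.18 ± 0.06, 0.048), and 0 a lower one (7 and 1 at an unadjusted p under 0.05). The shares of all genes after adjustment were 4.12% and 2.7%. Ephx1 also responds to CAR. Of 6 genes of the NRF2 system, Nfe2l2 and Keap1 among them, 0 were called for the daily mean by limma and 1 was higher at an unadjusted p under 0.05. Of 10 genes of the CAR and PXR system, 4 had a higher daily mean and 0 a lower one, beside the same 4.12% and 2.7% (7 and 0 at an unadjusted p under 0.05). The 4 were Cyp2b10 (1.19 ± 0.16, adjusted p = 5.61e-07), Cyp3a11 (0.30 ± 0.05, 1.82e-05), Cyp2b9 (0.22 ± 0.05, 0.00171) and Por (0.19 ± 0.06, 0.0248). The receptor genes Nr1i3 (CAR, 0.15 ± 0.05, 0.0627) and Nr1i2 (PXR, 0.14 ± 0.06, 0.179) did not pass for the daily mean. Rhythms differed between the regimens for 6 of 10 NRF2 targets, 4 of 6 NRF2 system genes and 7 of 10 CAR and PXR genes. Of all genes, 38.9% were called. Nfe2l2 (limma adjusted p of the difference = 4.07e-05), Nr1i3 (4.88e-12) and Nr1i2 (0.000934) were among those called, and Keap1 (0.26) was not.

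Markers of liver zones and of blood moved with the regimen. All 6 periportal hepatocyte markers had a higher daily mean under DRF, where 4.12% of all genes were higher. Their sum ranged from 1631 to 3424 scaled counts under DRF, with a median of 2654. Under NRF the sum ranged from 1652 to 2913, with a median of 2051. Of 8 pericentral markers, Oat and Rhbg were higher and the others were not called. The 3 hemoglobin genes were also higher, with summed medians of 1017 and 677. Of 5 hepatocyte markers Apoa1 and Cps1 were called, 1 of them higher. Of 17 markers of cholangiocytes, Kupffer cells, endothelial cells and stellate cells, 0 were called for the daily mean by limma. At an unadjusted p under 0.05 there were 3, all of cholangiocytes and higher under DRF. No marker list held a gene at 0 in all libraries. The part of zone and blood markers in the differences of the 10 genes was not tested.

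The genes whose level ran most like Gm3776 over the 56 libraries, other glutathione transferases left out, were Cyp2a22 (Spearman rho 0.80), Sult2a5 (0.80) and Sult2a3 (0.78). Cyp2a22 is a cytochrome P450, and the Sult2a genes encode sulfotransferases of steroids and bile acids. Sult2a3 had 35.3 ± 25.5 scaled counts under DRF and 4.44 ± 3.14 under NRF. Cyp2a22 was also the closest gene to Gsta2 (0.85). The closest genes to the others were Idh2 for Gsta4 (0.82), Samm50 for Gsta3 (0.84), Atp5a1 for Gstt1 (0.81) and Uroc1, an enzyme of histidine breakdown, for Gstt3 (0.91). Processed pseudogenes came first for Gstm1 (Gstm2-ps1, 0.85), Gstm2 and Gstm3 (Gm10359, 0.63 and 0.78) and Gstp1 (Gstp-ps, 0.67), and they can hold reads of their parent genes.

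RefSeq promoter windows (GRCm38.p6, 250 bases before to 50 after the start) were at hand for 9 of the 10 genes, all but Gsta4. They are shown at matches to response elements, since Gm3776, Gsta1 and Gsta2 ran together. The 250 bases before Gm3776, chr9:78256879-78257128 on the plus strand, were identical to those of Gsta1 at 236 of 237 aligned bases and to those of Gsta2 at 177 of 224.
Gm3776 upstream: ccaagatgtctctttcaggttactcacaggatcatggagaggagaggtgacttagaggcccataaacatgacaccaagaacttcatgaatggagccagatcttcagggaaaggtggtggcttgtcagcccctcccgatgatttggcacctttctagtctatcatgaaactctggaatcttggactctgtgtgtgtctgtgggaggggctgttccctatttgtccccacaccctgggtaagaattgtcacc
The core of the xenobiotic response element (GCGTG, searched on both strands) stood near the start of each of these genes and is in capitals below. Gm3776 is shown at chr9:78257128-78257157 (plus strand), Gsta1 at chr9:78230655-78230684 (plus strand) and Gsta2 at chr9:78347135-78347164 (minus strand).
Gm3776: cttactaaagtaGCGTGcacactcctctgg
Gsta2: cttactaaagtaGCGTGcacactcctctgg
Gsta1: cttactaaaggaGCGTGcacactcctctgg
Gm3776 and Gsta2 had the same 30 letters.

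The same core was found in the windows of Gstm1 and Gstp1, so in 4 of 9 members, and in 32.4% of 32851 promoter windows. The core of the antioxidant response element (TGACNNNGC) was found in 1 of 9, Gsta3, and in 12.4% of all windows.
Gsta3, chr1:21240452-21240481 (plus strand), the match in capitals: gcaactcaggcaTGACATTGCatttttctt
The E-box CACGTG and the D-box TTANGTAA, bound by clock factors, were found in 0 of 9 windows and in 7.15% and 2.32% of all windows. Only these letters were searched, so a window without a match can still hold another form of an element. A match is a match of letters, and binding was not measured.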

How the data were processed

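RNA sequencing libraries from 56 mouse livers (strand-specific, ribosomal RNA depleted, paired reads, per the labels' protocol text; the molecule field says polyA RNA) were analysed. The submitters' processing notes name CASAVA 1.8, featureCounts 1.5.0-p3, mm10 and GRCm38.p6; the aligner is not given in the sources used here. The authors deposited a gene table named TPM whose values are treated as a score: a value times the exon length of its gene followed a·ln(1 + f·k), with whole counts k and library constants a and f. In the library with the lowest share, 95.6% of left-out values up to 100 counts came out within 0.05 of a whole number. Exon lengths were those of GENCODE vM21. Of 25415 genes, 25267 could be rebuilt, 2068 of them, Gstp1 included, with a length searched on the values. Gsta3, Gsta4, Gstm1 and Gstt1, whose counts were high, were accepted at a wider tolerance of 0.2 of a whole number, a weaker check. Recovered counts summed to 309 to 693 M per library, more than the reads per sample that the study states. What sets their absolute scale was not tested. The transcript and circular RNA tables were not used.

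Scaled counts (f·k) were fitted as log2(scaled count + 1) in limma 3.58.1 (R 4.3.3, eBayes with trend) on all 56 libraries, with a mean, a 24-h cosine and a sine per regimen, and Benjamini-Hochberg adjustment over all genes at 0.05. A filter on the mean of the deposited values (0.1) removed 0 genes. The design had foreseen linear TPM. Cosine fits on scaled counts gave mesor, amplitude and peak with delta-method SE. Animals with the same replicate number are different mice, so no pairing was used. The median correlation of their deviations was 0.005. Methods were tested on simulated data.

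The 10 members are always named. Of the lists (other glutathione transferases; glutathione synthesis, recycling and peroxidases; mercapturate route and conjugate export; NRF2 targets outside glutathione; NRF2 system; CAR and PXR system) called genes may be named, and outside them the 3 genes most like Gm3776 and the closest one to each other member. Members, lists and markers were chosen with earlier results of these data known. Alternatives were another pseudocount (0.1), a filter at a mean of 1, the deposited values, median-of-ratios scaling, a length correction, a replicate block, leaving out a replicate or ZT0 or ZT24, and rank tests. Adding up near-identical genes, leaving out DRF ZT8 replicate 2 and dividing by transcript length were chosen after seeing the data. Python 3.11.15, numpy 2.4.6, scipy 1.17.1, pandas 2.3.3 and Biopython 1.88 were used.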

Additional observations from a re-analysis of the deposited data

Results flagged for a closer look

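Of 140 groups of 4 libraries (10 genes in 14 groups), 5 held a library far from the other 3 by Dixon's criterion, which chance gives in about 1 group in 20. Gstm3 in DRF ZT8 replicate 2 had 30.4 scaled counts against 63.5 to 65.7, and Gsta4 in the same library had 165 against 240 to 251.3. Gm3776 had 5.55 in NRF ZT20 replicate 1 against 8.0 to 8.41, and 10.7 in NRF ZT24 replicate 4 against 1.6 to 2.74. Gsta3 had 1314 in NRF ZT24 replicate 1 against 1120 to 1149.

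The 24-h rhythm differed between DRF and NRF, by the test of the difference in limma, for Gsta3 (adjusted p = 1.37e-08), Gstm1 (0.000594), Gsta4 (0.000994), Gstp1 (0.00206), Gm3776 (0.015) and Gsta2 (0.0348). Without replicate 4 of every group, only Gsta3, Gstm1 and Gstp1 stayed called, and Gm3776 was not called on the deposited values (0.131).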

How the results depend on the processing

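Members called under alternatives were 2 of 10 for rhythm under DRF without ZT24 and 2 without ZT0, 3 for rhythm under NRF by the exact rank test, and 4 for ZT24 against ZT0 under NRF on the values as deposited, where the main value was 0. With a replicate of every group or DRF ZT8 replicate 2 left out, members called ranged from 1 to 4 for rhythm under DRF, from 3 to 10 under NRF and from 3 to 6 for the rhythm difference. Over all genes, the length correction called 13324 genes for rhythm under DRF, 6396 for ZT24 against ZT0 under DRF and 8489 under NRF, and the values as deposited called 1877 and 6018 for the latter contrasts. With the same libraries left out, genes called over the daily mean ranged from 753 to 1739, over ZT24 against ZT0 from 119 to 775 under DRF and from 160 to 2643 under NRF, over rhythms from 6599 to 8708 under DRF and 8917 to 11037 under NRF, and over the rhythm difference from 8012 to 9815. The causes were not tested. The replicate block gave 4, 10 and 6 members for rhythm under DRF, rhythm under NRF and the difference, the main counts. Of 56 libraries, 17 correlated best with their own number, and correlations between libraries of the same number ranged from -0.375 to 0.304. Whether animals of the same number shared handling was not tested. No daily-mean difference of the 10 genes changed sign. That of Gm3776 lay between 2.02 and 2.48 and that of Gstp1 between -0.1 and -0.00016 over the alternatives on log2(scaled count + 1), except that with near-identical genes added up the sum that holds Gm3776 differed by 1.44. On the deposited values the difference was 2.66 for Gm3776, above the main value, and smaller in size than the main value for the other 9, as 0.29 for Gsta2, 0.04 for Gsta3, 0.09 for Gsta4 and 0.15 for Gstt3. The deposited values, a logarithmic score, were fitted as log2(value + 0.1), so these sizes are not on the main scale. What depth adds to the spread of low genes such as Gm3776 was not tested. The level of Gsta3 was 261 per kb of exon bases and 777 per kb of transcript.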
